A study of Mus musculus with 12 samples.

Results

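Bcl6, Bach1, Bach2, Zbtb7a, Zbtb17, Ncor1, Bcor and Prdm1 encode transcription factors, most of them known as repressors, and corepressors of B lineage cells. These 8 genes were taken as a list of BTB factors, corepressors that BTB proteins such as BCL6 recruit and Prdm1, out of 51826 genes in the count table. All 8 passed the filter on low counts that left 15038 genes for testing. The lines were made from bone marrow of C57BL/6 mice, expanded for 7 days with IL7 into pro-/pre-B cells, and transduced with the retroviral vector pMIG, either empty (EV) or carrying BCR-ABL1, the fusion kinase of Philadelphia chromosome-positive leukemia. Each of 2 mice gave 3 EV lines (1A to 1C and 2A to 2C) and 3 BCR-ABL1 lines under the same numbers, so that n was 6 per condition. All lines stayed in IL7 for 48 h after transduction. IL7 was then withdrawn for 1 week from every BCR-ABL1 line, whereas every EV line was kept in IL7 and sorted for GFP, so that the oncogene, the loss of IL7 and the sort cannot be told apart in these data.

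BTB proteins pair through a shared amino-terminal domain, and in BCL6 its surface binds corepressors such as NCOR1 and BCOR. BCL6 is best known as the repressor of the germinal centre reaction, and in pre-B cells it is known to be induced when IL7 signaling through STAT5 falls and FOXO factors become active. BACH1 and BACH2 join the BTB domain to a basic leucine zipper and bind DNA with small MAF proteins, and BACH2 and BCL6 are both known to hold down Prdm1. PRDM1, also called BLIMP1, drives the plasma cell program and in turn represses genes of B cell identity.

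RNA was read by paired-end sequencing of stranded total RNA libraries, and the counts per line summed to between 34791011 and 66011225. B lineage markers together reached between 2980 and 5140 CPM (read counts relative to the library total as scaled by TMM) in the EV lines and between 3050 and 3937 CPM in the BCR-ABL1 lines, and all 12 of them were detected, whereas no myeloid, mast cell or stromal marker passed the filter on low counts and the summed lists stayed at or under 1.75 CPM in every line. Among the B lineage markers Il7r, the IL7 receptor gene, was called lower in BCR-ABL1 lines (log2 fold change -1.06 ± 0.13 SE, FDR = 0.00328). Here and below, SE is that of the difference in mean log2 CPM (prior count 2), and not that of the fitted log2 fold change. Summed T and NK cell markers ran from 0.578 to 2.24 CPM in EV lines and from 0.415 to 3.76 CPM in BCR-ABL1 lines, and erythroid markers from 1.26 to 6.79 CPM and from 5.94 to 12.7 CPM, with Hba-a1 and Hba-a2 at 0 in every line. Reads shared between these close copies may not have been counted, so that the value of 0 does not show absence. Of the markers of other cell types that were tested, Cd3d was lower in BCR-ABL1 lines, from between 0.234 and 0.644 CPM to between 0.0304 and 0.116 CPM (FDR = 0.000511), and Hbb-bt higher, from between 0.974 and 6.50 CPM to between 5.71 and 12.4 CPM (FDR = 0.0296). The part of these counts in the results was not tested. EV lines of mouse 2 varied most, with a biological coefficient of variation of 0.386 against 0.0950 for EV lines of mouse 1, 0.0844 for BCR-ABL1 lines of mouse 1 and 0.103 for those of mouse 2. EV line 2C lay farthest from the other lines of its mouse, and several results that rest on it are given with and without it.

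Of the 8 genes, 3 were lower in the BCR-ABL1 lines by more than 1.5-fold, namely Bcl6, Prdm1 and Bach2, and 0 were higher by edgeR, at an unadjusted p under 0.05 or by DESeq2. Among all tested genes 6.49% were called lower and 5.99% higher by the same rule, a test against a 1.5-fold change at a false discovery rate (FDR) of 0.05 over all tested genes. Against no change at all, 7 of the 8 were lower and 0 were higher, at a background of 25.9% lower and 22.5% higher, and Bach1 was the gene that passed in neither direction. In 5 of the 8 every BCR-ABL1 line lay below every EV line, and in 0 of the 8 above, where 13.5% and 12.1% of all tested genes were separated in that way. The median log2 fold change was -0.36 over the 8 genes and -0.02 over all tested genes. The members were chosen with earlier results of these data known, and the study shows Bcl6 from these lines. These counts are thus no independent test of the 8 genes.

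**Figure D1:**
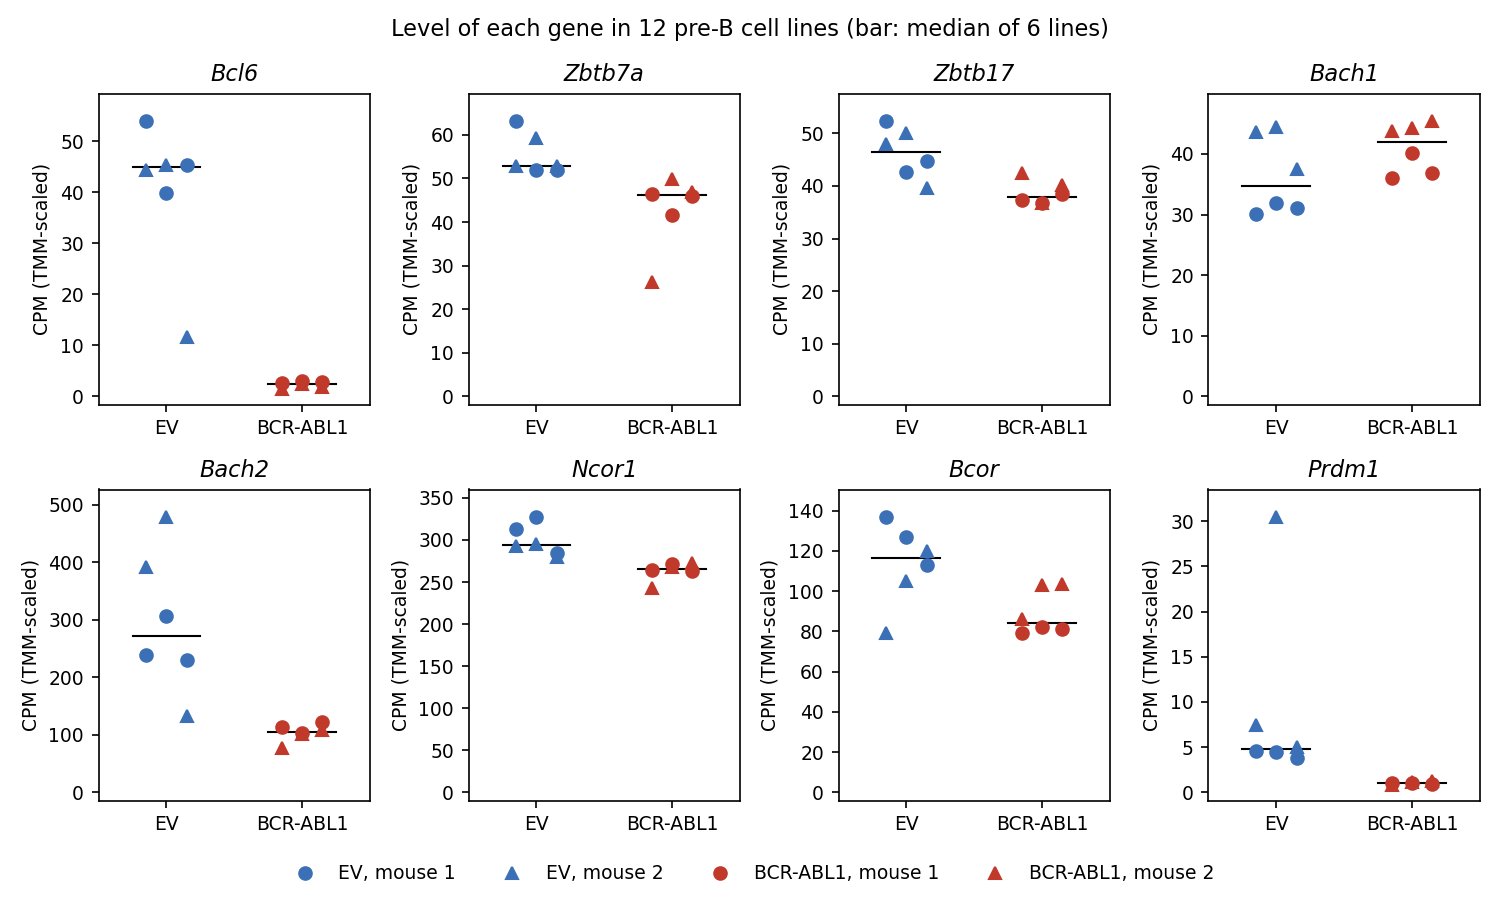
Level of each gene in CPM (linear axis from 0, scaled by TMM) in 6 EV lines and 6 BCR-ABL1 lines, with circles for mouse 1, triangles for mouse 2 and a bar at the median of each condition. Bcl6 and Prdm1 fell to 2.97 CPM or less and 1.25 CPM or less in every BCR-ABL1 line, and EV lines 2C (Bcl6) and 2B (Prdm1) stand apart from the other EV lines.

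The 3 genes that fell by more than 1.5-fold are shown with the DNA just before their annotated starts, because a shared change at the RNA level raises the question of which letters they share there. The 250 bases before each RefSeq start on GRCm38.p6 are printed 5′ to 3′ on the strand of the gene, in lower case, with matches to the searched motifs in capitals. The searched motifs were TTCNNNGAA, GTAAACA of FOXO factors, TGANTCA and the E-box CACGTG. Each was searched on both strands and chosen after the sequences had been seen. TTCNNNGAA is known to be bound by STAT factors and, in some of its forms, by BCL6. TGANTCA is looser than the core of the MAF recognition element that BACH proteins use, which has C or G at the middle base. Bcl6 has one window outside any annotated gene (chr16:23988853-23989102, minus strand) and one in an intron of Bcl6 itself before a downstream start (chr16:23981284-23981533, minus strand). The windows of Bach2 (chr4:32417185-32417434, plus strand) and Prdm1 (chr10:44458749-44458998, minus strand) lie in introns of these genes, before starts downstream of the first annotated exon.
Bcl6, upstream start: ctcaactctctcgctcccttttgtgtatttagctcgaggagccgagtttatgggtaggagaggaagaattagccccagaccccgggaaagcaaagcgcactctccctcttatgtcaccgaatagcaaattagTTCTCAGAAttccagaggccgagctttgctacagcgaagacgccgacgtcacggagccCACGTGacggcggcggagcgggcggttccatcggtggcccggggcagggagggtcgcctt
Bcl6, downstream start: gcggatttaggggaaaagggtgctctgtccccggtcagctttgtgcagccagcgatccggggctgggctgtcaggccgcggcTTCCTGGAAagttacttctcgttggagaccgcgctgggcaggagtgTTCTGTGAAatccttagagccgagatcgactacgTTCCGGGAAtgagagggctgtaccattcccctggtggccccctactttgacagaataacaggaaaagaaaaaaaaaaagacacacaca
Bach2: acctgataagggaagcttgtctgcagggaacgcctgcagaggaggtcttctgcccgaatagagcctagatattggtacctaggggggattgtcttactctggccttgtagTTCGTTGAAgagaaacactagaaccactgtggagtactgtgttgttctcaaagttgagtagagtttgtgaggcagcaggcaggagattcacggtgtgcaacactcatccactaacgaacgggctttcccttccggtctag
Prdm1: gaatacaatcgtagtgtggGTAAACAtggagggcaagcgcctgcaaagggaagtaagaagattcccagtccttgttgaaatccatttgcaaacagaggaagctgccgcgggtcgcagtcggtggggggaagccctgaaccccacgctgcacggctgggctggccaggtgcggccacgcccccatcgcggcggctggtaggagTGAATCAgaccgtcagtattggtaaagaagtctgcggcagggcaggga

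The downstream Bcl6 window held 3 matches to TTCNNNGAA, with the letters TTCCTGGAA, TTCTGTGAA and TTCCGGGAA at 168, 122 and 88 bases before the start, and the upstream window held 1, TTCTCAGAA, together with the E-box. The Bach2 window held TTCGTTGAA, and the Prdm1 window held no match to this motif but 1 to GTAAACA and 1 to TGANTCA. The latter match, TGAATCA, has A at the middle base and is thus not the core of the MAF recognition element itself. Over 300 bases, the last 50 of them past the start, 8.30% of 32851 RefSeq windows of all genes held TTCNNNGAA, 3.65% GTAAACA, 7.81% TGANTCA and 7.15% CACGTG. In all, 11 windows, or 0.0335%, held 3 or more matches to TTCNNNGAA, a cut equal to the count in the downstream Bcl6 window. With that cut, and motifs chosen after the sequences had been seen, this share is no test of that window. Of the 5 other genes, Bcor held TTCGGAGAA in both of its overlapping windows and Ncor1 TTCCTAGAA in 1 of 2, past the start, whereas the windows of Zbtb7a, Zbtb17 and Bach1 held none of the 4 motifs. These are matches of letters and not measured binding sites.

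Bcl6 (chr16:23965052-23988852, minus strand) showed the largest change of the 8 genes. It was at 11.7 CPM in the lowest EV line, at a median of 44.9 CPM and at 54.0 CPM in the highest, and between 1.48 and 2.97 CPM in the BCR-ABL1 lines, with a median of 2.5 CPM. The conditions did not overlap, and the lowest EV line, 2C, stood alone below the other 5, which lay at 39.8 CPM or above. In BCR-ABL1 lines Bcl6 was 16.9-fold lower (log2 fold change -4.08 ± 0.37 SE, FDR = 1.31e-05, n = 6 and 6), on between 77 and 161 counts per line against between 650 and 2948 in EV lines. The fold change was -4.05 in mouse 1 and -4.11 in mouse 2 on the log2 scale, and without EV line 2C it was -4.27 over both mice.

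Zbtb7a (chr10:81135220-81152995, plus strand) encodes LRF, a BTB zinc finger repressor that acts in the choice between the B and T cell lineages. Its EV lines ran from 52.0 to 63.2 CPM with a median of 52.9 CPM, and its BCR-ABL1 lines from 26.3 to 49.8 CPM with a median of 46.2 CPM. The conditions did not overlap although the gap between them was narrow, and BCR-ABL1 line 2A was the low one. The log2 fold change was -0.37 ± 0.15 SE with a 95% interval from -0.70 to -0.04, which did not pass the 1.5-fold test (FDR = 1) but passed the test against no change (FDR = 0.0356).

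Zbtb17 (chr4:141444654-141467930, plus strand) encodes the MYC partner MIZ1, which is needed for IL7 responses of early B cells. It lay between 39.5 and 52.3 CPM in EV lines, with a median of 46.4 CPM, and between 36.7 and 42.4 CPM in BCR-ABL1 lines, with a median of 37.9 CPM. The conditions overlapped only through EV line 2C, again the lowest of the EV lines. The next lowest, EV line 1B, lay at 42.6 CPM, just above the highest BCR-ABL1 line. The log2 fold change was -0.26 ± 0.07 SE with a 95% interval from -0.41 to -0.10, within 1.5-fold in either direction (FDR = 1 against 1.5-fold and 0.0135 against no change).

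Bach2 (chr4:32238804-32586108, plus strand) is the B lineage member of the BACH pair. Its EV lines ran from 133 to 478 CPM with a median of 273 CPM, and its BCR-ABL1 lines from 77.9 to 122 CPM with a median of 105 CPM. EV line 2C was again the lowest, close above the highest BCR-ABL1 line, and EV lines 2A and 2B were the highest, so that EV lines of mouse 2 spanned the whole EV range. Bach2 was 2.83-fold lower in BCR-ABL1 lines (log2 fold change -1.50 ± 0.28 SE, FDR = 0.00670), and without EV line 2C 3.14-fold lower (log2 fold change -1.65, FDR = 0.000531). With lines of mouse 2 alone it missed the 1.5-fold threshold (log2 fold change -1.78, FDR = 0.105). The antisense gene Bach2os shares 537 exon bases with Bach2, and the strand setting of the counting is not given in the sources used here. Bach2os itself held between 0 and 12 counts per line against at least 4046 for Bach2. This does not show whether reads over the shared bases were lost from the Bach2 count, which was not tested.

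Bach1 (chr16:87698945-87733346, plus strand), the widely expressed relative that senses heme, was the one gene of the 8 with a positive log2 fold change. It lay between 30.1 and 44.5 CPM in EV lines, with a median of 34.7 CPM, and between 36.0 and 45.4 CPM in BCR-ABL1 lines, with a median of 42.0 CPM. The conditions overlapped, and lines of mouse 2 lay above lines of mouse 1 in each condition. The log2 fold change was 0.17 ± 0.12 SE, with a 95% interval from -0.09 to 0.44, and passed neither test (FDR = 1 against 1.5-fold and 0.225 against no change). The 2 BACH genes thus took different courses in the same lines, Bach2 with an interval from -2.13 to -0.88.

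Neither corepressor gene passed the test against 1.5-fold. Ncor1 (chr11:62316426-62458541, minus strand), which tethers the deacetylase HDAC3 to repressors, ran from 280 to 327 CPM in EV lines (median 294 CPM) and from 243 to 272 CPM in BCR-ABL1 lines (median 266 CPM). These groups did not overlap, yet the log2 fold change was -0.18 ± 0.04 SE with a 95% interval from -0.28 to -0.09 (FDR = 1 against 1.5-fold and 0.0161 against no change). Bcor (chrX:12036740-12160355, minus strand), the BCL6 corepressor of the Polycomb complex PRC1.1, ran from 79.2 to 137 CPM in EV lines (median 117 CPM) and from 79.2 to 104 CPM in BCR-ABL1 lines (median 84.2 CPM). The conditions overlapped through EV line 2A, which was as low as the lowest BCR-ABL1 line. The log2 fold change was -0.35 ± 0.13 SE with a 95% interval from -0.65 to -0.05 (FDR = 1 against 1.5-fold and 0.0360 against no change), so that for Bcor, as for Zbtb7a, the interval reached past a 1.5-fold fall.

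Prdm1 (chr10:44437177-44528501, minus strand) was the least expressed of the 8 genes, and like Bcl6 and Bach2 it was lower in BCR-ABL1 lines. Its EV lines ran from 3.81 to 30.5 CPM with a median of 4.81 CPM, and its BCR-ABL1 lines from 0.828 to 1.25 CPM with a median of 1.04 CPM, on between 40 and 78 counts per line. The conditions did not overlap, and EV line 2B, at 1533 counts, stood far above the other EV lines, which reached at most 7.42 CPM. Prdm1 was 8.91-fold lower in BCR-ABL1 lines (log2 fold change -3.15 ± 0.46 SE, FDR = 0.00243). Without EV line 2B it was 4.88-fold lower (log2 fold change -2.29, FDR = 5.22e-05).

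**Figure D2:**
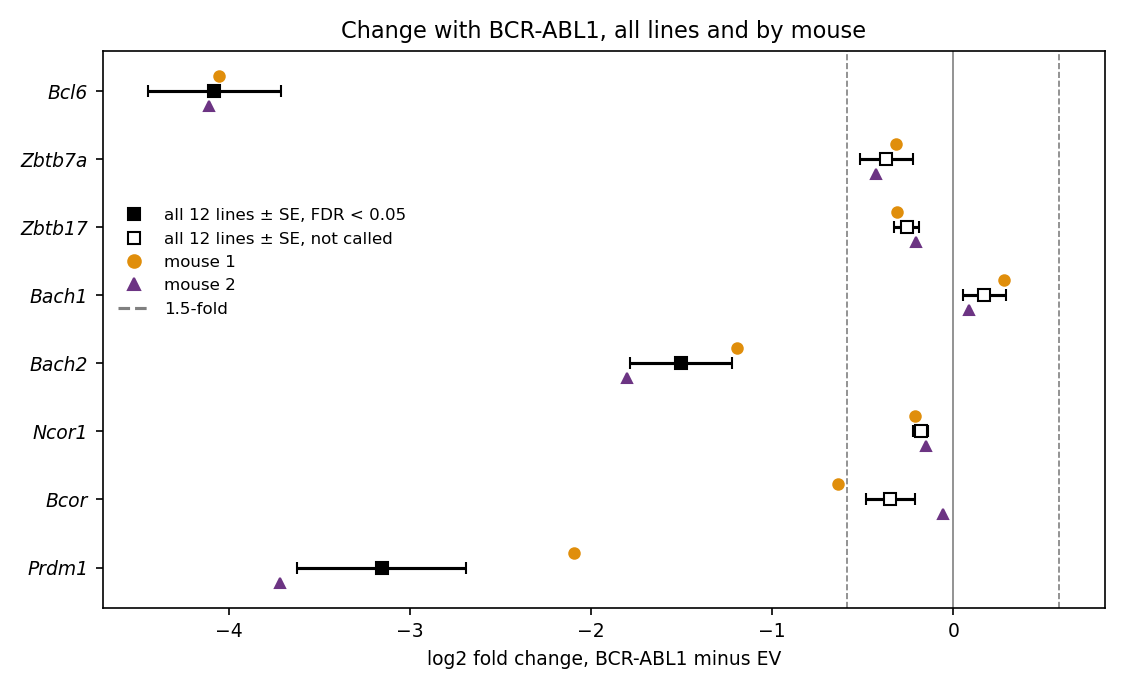
Log2 fold change of each gene, BCR-ABL1 minus EV, over all 12 lines (squares, bars ± 1 SE, filled where the FDR was under 0.05 against 1.5-fold) and within mouse 1 (circles) and mouse 2 (triangles), with dashed lines at 1.5-fold. Bcl6, Prdm1 and Bach2 lie left of the dashed line in both mice, and the 5 other genes lie within it over all lines.

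A two-sided exact permutation test of each gene, which borrows no spread from other genes, gave p = 0.00216 for Bcl6, Bach2, Prdm1, Zbtb7a and Ncor1, the smallest value that the labelings of 12 lines into 6 and 6 allow. The exact p was 0.00866 for Zbtb17, 0.0346 for Bcor and 0.149 for Bach1. For Bach1 the p of the exact permutation test was 0.0200 when labels were exchanged only within each mouse, where 400 labelings allow no p under 0.005. With the mouse as a block in the edgeR fit, Bach2 (FDR = 0.00801), Bcl6 and Prdm1 were called as before.

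The effect was next compared between the mice. In the fit of both mice, 2 of the 8 genes were called lower by more than 1.5-fold in mouse 1, at a background of 7.44% of all tested genes, and 3 in mouse 2, at 6.66%. Bach2 changed by -1.19 in mouse 1 (FDR = 0.0932) and by -1.80 in mouse 2 (FDR = 0.0146) on the log2 scale, and Prdm1 by -2.10 (FDR = 0.0335) and -3.72 (FDR = 0.00175). Separate fits of each mouse turned the calls of Bach2 round, with a call in mouse 1 alone (-1.18, FDR = 0.000155) and none in mouse 2 alone (-1.78, FDR = 0.105), whereas Bcl6 and Prdm1 were called in both. A call in one mouse and not in the other is not a difference between them. The interaction of mouse and condition was called for 0 of the 8 genes (quasi-likelihood F-test of edgeR), against 16.9% of all tested genes, and for 1 of the 8 at an unadjusted p under 0.05. Bcor came closest, at -0.63 in mouse 1 and -0.06 in mouse 2 (difference 0.58, FDR = 0.0682).

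EV line 2C decided this outcome. Without it 4 of the 8 genes had an interaction under the threshold, and so had 36.0% of all tested genes. The difference of the effect, mouse 2 minus mouse 1, was then -0.99 for Bach2 (FDR = 0.00281), 0.72 for Bcor (FDR = 0.00455), -2.03 for Prdm1 (FDR = 0.0196) and -0.26 for Bach1 (FDR = 0.0430). With all 12 lines these differences were -0.61, 0.58, -1.62 and -0.19. The count of genes called lower by more than 1.5-fold stayed at 3 of 8 without the line, at a background of 9.35% lower and 8.83% higher.

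Between mice within a condition, 2 of the 8 genes differed among EV lines, where 24.8% of all tested genes did so, and 0 of the 8 among BCR-ABL1 lines, where 5.97% did, with 1 of the 8 at an unadjusted p under 0.05. The 2 genes were Bach1, higher in EV lines of mouse 2 by 0.43 on the log2 scale (FDR = 0.00261), and Prdm1, higher by 1.75 (FDR = 0.0327), the latter with EV line 2B in the group. EV lines averaged 31.1 ± 0.943 CPM of Bach1 in mouse 1 and 41.9 ± 3.82 CPM in mouse 2 (SD, n = 3 each). BCR-ABL1 lines averaged 37.7 ± 2.19 CPM and 44.5 ± 0.818 CPM.

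Levels per kilobase of exon place the genes in an order. In EV lines Bach2 was highest at 29.8 ± 12.5 CPM per kb (SD, n = 6), and its range overlapped that of Ncor1 at 23.3 ± 1.40 CPM per kb. Bcor (13.1 ± 2.32) and Zbtb17 (11.9 ± 1.24) followed and overlapped each other, then Zbtb7a (8.13 ± 0.693), Bcl6 (5.98 ± 2.18) and Bach1 (5.90 ± 1.04), each overlapping its neighbour. Prdm1 came last at 1.66 ± 1.87 CPM per kb, its range reaching that of Bach1 only through EV line 2B. In BCR-ABL1 lines Ncor1 led alone at 20.6 ± 0.837 CPM per kb. Bach2 (10.5 ± 1.51), Bcor (10.3 ± 1.29) and Zbtb17 (9.97 ± 0.586) overlapped below it, Bach1 (6.65 ± 0.652) and Zbtb7a (6.29 ± 1.25) overlapped at a lower level, and Bcl6 (0.354 ± 0.0860) and Prdm1 (0.186 ± 0.0286) lay far below, again overlapping each other. Bcl6 thus moved from a level like that of Bach1 to one near that of Prdm1. In bulk RNA, fewer cells with a transcript and less transcript per cell cannot be told apart.

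**Figure D3:**
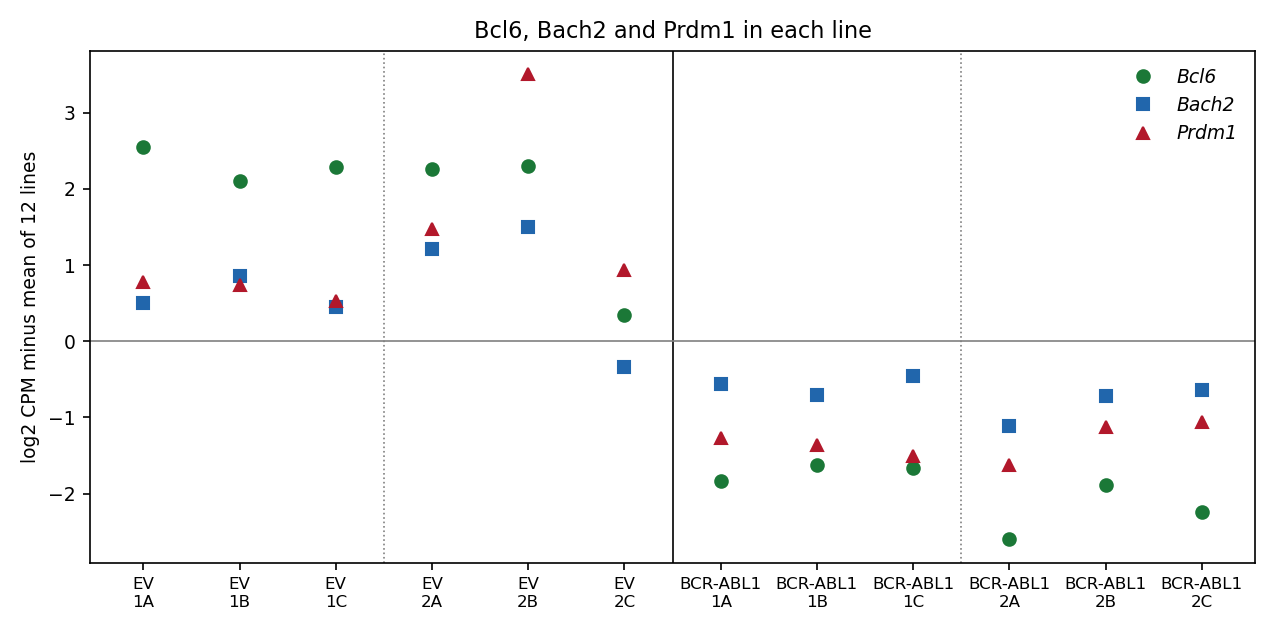
Log2 CPM of Bcl6, Bach2 and Prdm1 in each of the 12 lines, each gene centred on its own mean, with EV lines left and BCR-ABL1 lines right of the solid line and the mice parted by dotted lines. Bcl6 and Bach2 are lowest among EV lines in 2C, and Prdm1 is highest in 2B.

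Profiles across the lines were compared by distance, a measure in which a difference in the size of the change between conditions takes a large part. The root mean square distance between centred log2 profiles over 12 lines was 0.838 for Bach2 and Prdm1, 1.08 for Bcl6 and Prdm1 and 1.34 for Bcl6 and Bach2. Among 11054 genes whose mean log2 CPM reached 1 or more, the profiles nearest to Bach2 were those of Nnt (0.129), the mitochondrial nicotinamide nucleotide transhydrogenase, Lig4 (0.147), the DNA ligase of end joining in V(D)J recombination, and 6820402A03Rik (0.204). Those nearest to Bcl6 were Igkv1-135 (0.507), a kappa variable segment of a multigene family whose reads may be shared with its copies, Gm42539 (0.508) and Enpp6 (0.532). Those nearest to Prdm1 were Tle6 (0.438), a Groucho family corepressor, Tmc7 (0.467) and Fam129c (0.481), a B cell gene. The neighbours of Bach2 lay closer to it than those of Bcl6 or Prdm1 did to theirs. Bach2 also had a smaller change (log2 fold change -1.50 against -4.08 and -3.15). It held at least 4046 counts per line, where Bcl6 and Prdm1 fell to 77 and 40 in BCR-ABL1 lines. The part of size and depth in these distances was not tested.

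Of 44 further genes of the wider BTB zinc finger family, 38 were tested, 1 fell by more than 1.5-fold and 0 rose (1 at an unadjusted p under 0.05). Among all tested genes 6.49% fell and 5.99% rose. The median log2 fold change was -0.25 against -0.02 over all tested genes. The gene that fell was Zbtb46, a dendritic cell factor, from between 0.207 and 0.889 CPM in EV lines to between 0.0627 and 0.135 CPM in BCR-ABL1 lines (log2 fold change -1.91 ± 0.33 SE, FDR = 0.0139), on at most 33 counts per line. DESeq2 did not call it (adjusted p = 0.0662). Against no change, 18 of the 38 were lower and 3 higher, at a background of 25.9% and 22.5%.

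Corepressor complexes were read next. Of 8 tested partners in the NCOR complex, 2 fell (6.49% of all tested genes did) and 0 rose, with a median of -0.11. Hdac9 fell from between 64.5 and 256 CPM to between 12.0 and 15.1 CPM (log2 fold change -3.33 ± 0.37 SE, FDR = 0.000156), and Hdac5 from between 71.0 and 261 CPM to between 32.0 and 48.6 CPM (log2 fold change -2.0 ± 0.33 SE, FDR = 0.00249). The conditions did not overlap for either gene. Both are class IIa deacetylases, which NCOR proteins bind. The other genes of that class, Hdac4 (log2 fold change 0.13 ± 0.14 SE) and Hdac7 (0.20 ± 0.10 SE), did not pass the test (FDR = 1 for both) and had overlapping groups. The catalytic partner Hdac3 lay between 72.6 and 84.4 CPM in all lines (log2 fold change -0.06 ± 0.04 SE, FDR = 1). Of 9 tested partners of BCOR in PRC1.1, 0 rose and 0 fell by more than 1.5-fold in edgeR, at an unadjusted p under 0.05 or in DESeq2, with a median of -0.17, and against no change 2 were higher and 3 lower, at a background of 22.5% and 25.9%. Of 18 tested NuRD, SIN3 and CtBP genes, 1 rose (5.99% of all tested genes did) and 0 fell, with a median of 0.10. The gene that rose was Mta3, the NuRD subunit that is known to work with BCL6 in germinal centre cells, from between 0.0180 and 0.565 CPM to between 0.795 and 4.41 CPM (log2 fold change 3.03 ± 0.68 SE, FDR = 0.00974). The change of Mta3 was 1.37 in mouse 1 (FDR = 0.0847) and 5.24 in mouse 2 (FDR = 7.17e-05), and the call was lost with line pairs as a block (FDR = 0.0856).

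**Figure D4:**
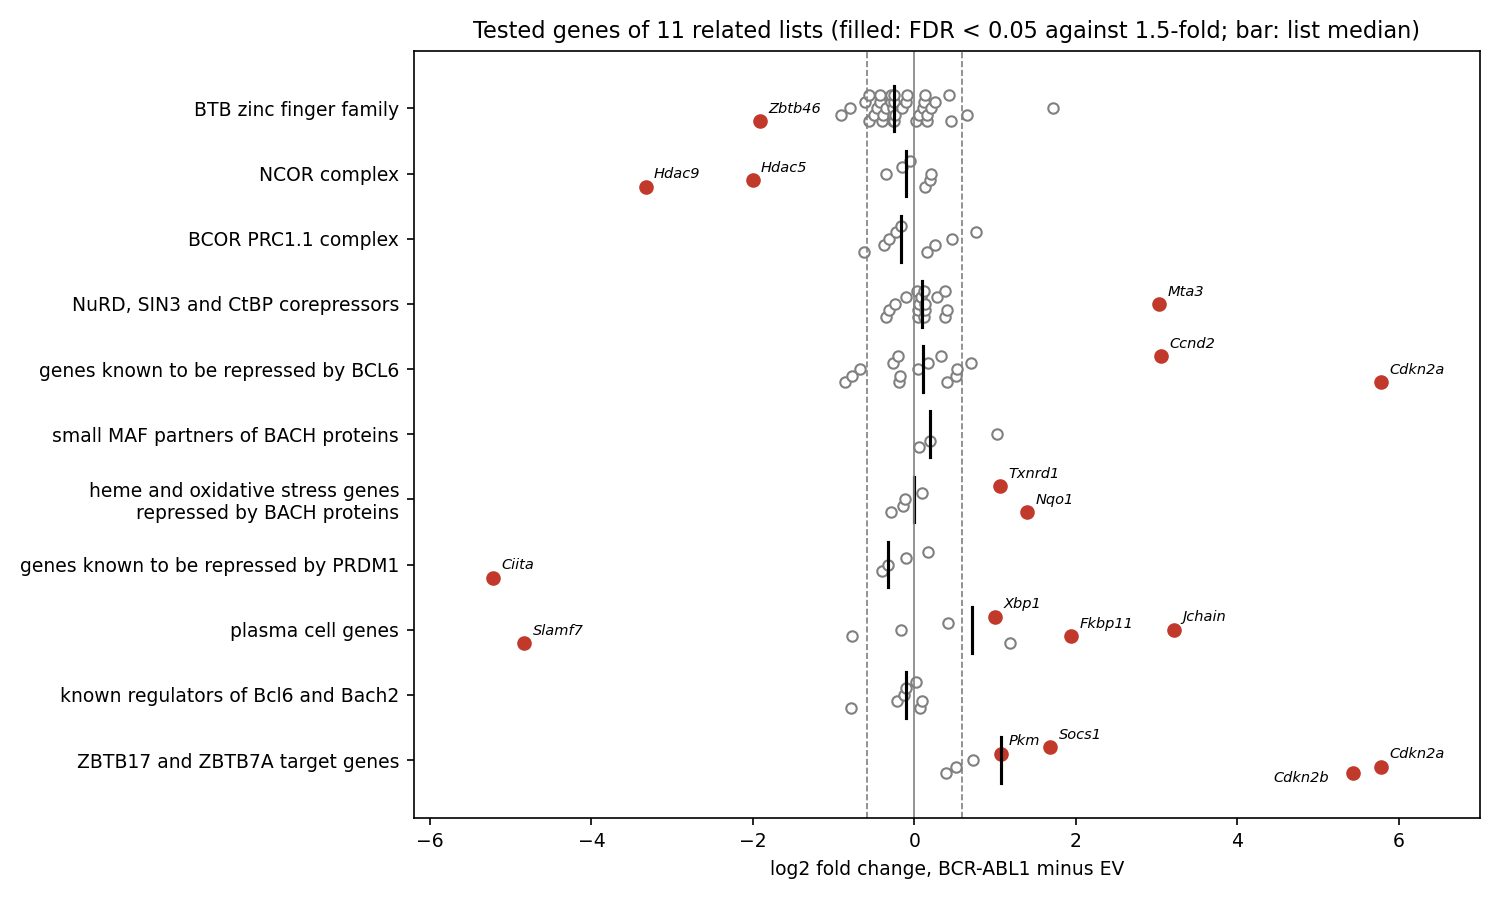
Log2 fold change, BCR-ABL1 minus EV, of each tested gene in 11 lists of genes related to the 8, with red points and names where the FDR was under 0.05 against 1.5-fold, open points elsewhere, a bar at each list median and dashed lines at 1.5-fold. Most genes lie within the dashed lines, and the named ones include Hdac9 and Hdac5 on the left and Cdkn2a, Cdkn2b, Ccnd2 and Mta3 on the right.

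Genes known as targets of proteins among the 8 were then read out, in lists chosen with earlier results of these data known. Of 18 genes known to be repressed by BCL6, 16 were tested, 2 rose and 0 fell by more than 1.5-fold (1 at an unadjusted p under 0.05), with a median of 0.11. Cdkn2a, which encodes the cell cycle inhibitors INK4A and ARF, rose from between 0.230 and 0.866 CPM to between 25 and 28.9 CPM (log2 fold change 5.77 ± 0.34 SE, FDR = 2.03e-06). Ccnd2, a D-type cyclin, rose from between 8.58 and 170 CPM to between 373 and 482 CPM (log2 fold change 3.05 ± 0.68 SE, FDR = 0.0111), and without EV line 2C by 3.87 on the log2 scale (FDR = 0.000535). Trp53 had a log2 fold change of -0.19 ± 0.16 SE (FDR = 1) and Cdkn1a, which p53 induces, one of 0.52 ± 0.19 SE (FDR = 0.960 against 1.5-fold and 0.0273 against no change), with overlapping groups for both. The 2 of 16 stand beside the 5.99% of all tested genes called higher. Prdm1, itself a known target of BCL6 and BACH2, was lower in BCR-ABL1 lines, and a link to the fall of Bcl6 and Bach2 was not tested.

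Small MAF genes, the partners of BACH proteins on DNA, gave 0 calls among 3 tested by edgeR, at an unadjusted p under 0.05 or by DESeq2, with a median of 0.20. Of 9 heme and oxidative stress genes that BACH proteins are known to repress, 6 were tested, 2 rose and 0 fell, with a median of -0.01. Among all tested genes 5.99% rose and 6.49% fell. Txnrd1, a thioredoxin reductase, rose from between 84.8 and 194 CPM to between 201 and 275 CPM (log2 fold change 1.06 ± 0.19 SE, FDR = 0.0277), and Nqo1, a quinone reductase, from between 0.0596 and 0.245 CPM to between 0.203 and 0.426 CPM (log2 fold change 1.40 ± 0.28 SE, FDR = 0.0447), on at most 28 counts per line. With the mouse as a block Nqo1 was no longer called (FDR = 0.0504), which left 1 of 6, and 1 of the 3 small MAF genes, Maff, was then called higher (log2 fold change 1.45, FDR = 0.0252). Calls of Txnrd1 and Nqo1 were lost in DESeq2 and when any of 7 and 9 of the 12 lines, respectively, was left out. Hmox1, the heme oxygenase gene that BACH1 is known to repress, did not pass the filter and was at between 0 and 0.119 CPM in EV lines and between 0.159 and 1.27 CPM in BCR-ABL1 lines, on at most 61 counts, and was given no test.

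Among 5 tested genes known to be repressed by PRDM1, 0 rose (5.99% of all tested genes did) and 1 fell (6.49% did), with a median of -0.33. That gene was Ciita, the activator of MHC class II genes, which fell from between 0.445 and 8.90 CPM to between 0 and 0.152 CPM (log2 fold change -5.22 ± 0.73 SE, FDR = 0.00461). Without EV line 2B, the highest, the log2 fold change of Ciita was -3.78 (FDR = 0.00208), and without BCR-ABL1 line 2B -5.94 (FDR = 0.00650). Of 8 tested plasma cell genes, 3 rose and 1 fell, beside the same shares of all tested genes, with a median of 0.71. Xbp1, the transcription factor of the secretory program, rose from between 45.9 and 64.7 CPM to between 97.1 and 125 CPM (log2 fold change 1.00 ± 0.11 SE, FDR = 0.00382). Jchain, the joining chain of IgM, rose by 3.21 ± 0.57 SE (FDR = 0.00405) and Fkbp11 by 1.94 ± 0.32 SE (FDR = 0.00621) on the log2 scale, the latter on at most 48 counts per line. Slamf7, a surface receptor of plasma and other lymphoid cells, fell from between 38.2 and 344 CPM to between 4.50 and 9.38 CPM (log2 fold change -4.83 ± 0.53 SE, FDR = 7.11e-05).

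Of 8 genes known as targets of ZBTB17 or ZBTB7A, 7 were tested, 4 rose (5.99% of all tested genes did) and 0 fell (6.49% did), with a median of 1.07. They were Cdkn2a, which the BCL6 list also holds, Cdkn2b, the INK4B inhibitor that MYC and MIZ1 repress, Socs1, a brake on cytokine receptors, and Pkm, a glycolytic kinase. Cdkn2b rose from between 0 and 0.153 CPM to between 0.780 and 1.25 CPM (log2 fold change 5.43 ± 0.40 SE, FDR = 0.000394), on at most 60 counts per line. Without EV line 2A, the one at 0.153 CPM, the log2 fold change of Cdkn2b was 7.39 (FDR = 4.23e-06), a fitted value that depends on the prior count, since the other EV lines were at or under 0.0180 CPM. Socs1 rose by 1.68 ± 0.43 SE (FDR = 0.0361) with overlapping groups, a call that was lost when any of 7 of the 12 lines was left out, and Pkm by 1.07 ± 0.16 SE (FDR = 0.0107) on the log2 scale.

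Known regulators of Bcl6 and Bach2 gave 0 calls in either direction among 7 tested by edgeR, at an unadjusted p under 0.05 or by DESeq2, with a median of -0.10. Against no change 1 was lower, at a background of 25.9% of all tested genes. Foxo1 ran from 78.2 to 112 CPM in EV lines and from 55.6 to 110 CPM in BCR-ABL1 lines (log2 fold change 0.10 ± 0.17 SE, FDR = 1). Stat5a had a log2 fold change of 0.01 ± 0.09 SE and Stat5b one of 0.07 ± 0.07 SE (FDR = 1 for both), with overlapping groups. The counts measure RNA alone, so that activity of STAT5 or FOXO1 proteins was not measured here. In the lists with 0 calls in one direction, DESeq2 also gave 0 there, and edgeR at an unadjusted p under 0.05 gave 0 apart from the BTB family and the BCL6-repressed genes.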

How the data were processed

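RNA-seq of 6 EV and 6 BCR-ABL1 pre-B cell lines was taken as the authors deposited it, as whole-number counts of reads per gene for 51826 Ensembl genes, with no normalization and no pooling. The submitters' processing notes name FastQC 0.11.5, Trimmomatic 0.36, TopHat2 2.1.1, Bowtie2 2.3.2, featureCounts 1.5.3, R 3.6.1, edgeR 3.18.1 and build GRCm38. The strand setting of the counting is not given in the sources used here.

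Symbols and positions came from GENCODE M21 (51633 identifiers matched, all 8 members included) and promoter windows from RefSeq. Counts were filtered with filterByExpr, scaled by TMM and tested with glmTreat against 1.5-fold on the quasi-likelihood fit (edgeR 4.0.16, R 4.3.3), with Benjamini-Hochberg adjustment over 15038 genes, as the study's fold and FDR thresholds require. SE is that of the difference in mean log2 CPM (prior count 2) between lines, and 95% intervals use the t distribution with 10 degrees of freedom. Both are set around the log2 fold change of the edgeR fit, which is a different estimate (for Prdm1 -3.15 against -2.65 from mean log2 CPM). They are thus not the error of the fitted value, and the prior count can make them too small for genes near 0 CPM. Expression is in CPM, or per kb of the union of exons. The interaction of mouse and condition was tested with glmQLFTest. Alternatives were DESeq2 1.42.0, a likelihood ratio fit, other filters, size factors and prior counts (0.5), a test against no change, blocks by mouse and by line pair, single mice, and leaving out each line. The scripts' tests were tested on simulated data. Plots were drawn with matplotlib 3.10.9.

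Lines of the same mouse and condition differed beyond sampling noise in all 12 pairs (chi-square per gene at least 9.96). Lines of one mouse deviated together across the conditions (correlation of deviations between 0.0853 and 0.240 over 18 pairs), and those of different mice apart (between -0.203 and -0.0636). The pairing comes from the mouse in the labels. The p-values cover the spread between lines from 2 mice.

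The members and lists were chosen with earlier results of these data known, and Bcl6 is among the genes that the study shows from these lines. Named genes are the 8 members, up to 4 called genes of each list with the largest change, Hdac3, Cdkn2a, Cdkn1a, Trp53, Hmox1, Foxo1, Stat5a and Stat5b, and the 3 nearest profiles of each called member. A gene that the rule also named is not reported here, and the list that held it was counted without it. Hdac4, Hdac7, Il7r, Cd3d, Klrb1c, Hbb-bt and Klf1 were named after their values were seen.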

Additional observations from a re-analysis of the deposited data

Results flagged for a closer look

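Over 80 groups of 6 lines of the genes named, 11 held 1 line whose gap to the next, relative to the range of the group, was above Dixon's 95% critical value, and chance flags about 1 group in 20. Among EV lines, line 2C stood apart for Bcl6 (11.7 CPM against 39.8 CPM in the next) and Txnrd1 (194 CPM against 115 CPM). Line 2B stood apart for Prdm1 (30.5 CPM against 7.42 CPM), Ciita (8.90 CPM against 1.41 CPM) and Tmc7 (20.4 CPM against 8.62 CPM). EV line 2A stood apart for Cdkn2b (0.153 CPM against 0.0180 CPM). Among BCR-ABL1 lines, line 2A stood apart for each of 5 genes, low for Zbtb7a (26.3 CPM against 41.7 CPM), Ncor1 (243 CPM against 263 CPM), Trp53 (44.2 CPM against 71.5 CPM) and Foxo1 (55.6 CPM against 98.1 CPM) and high for Pkm (1198 CPM against 911 CPM).

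The effect of BCR-ABL1 differed between the mice for 6 of the related genes by the interaction test of edgeR. That test called 16.9% of all tested genes, and 36.0% without EV line 2C. The count of 6 was not tested against that share. The difference of the log2 fold change, mouse 2 minus mouse 1, was 3.87 for Mta3 (FDR = 0.00262), -1.60 for Cdkn2a (FDR = 0.000686), -2.87 for Ccnd2 (FDR = 0.00994), 2.32 for Slamf7 (FDR = 0.00925), -2.45 for Jchain (FDR = 0.0282) and -2.36 for Socs1 (FDR = 0.000727). The direction within each mouse was the same for all 6, for example 6.76 and 5.15 for Cdkn2a and -5.78 and -3.46 for Slamf7.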

How the results depend on the processing

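Bcl6, Bach2 and Prdm1 kept their direction and their call under all alternatives but one, in which Bach2 with lines of mouse 2 alone missed the threshold (log2 fold change -1.78, adjusted p = 0.105). With line pairs as a replicate block Bach2 had FDR = 0.0455, and no block changed the call of any of the 8 genes. Against no change Zbtb7a (-0.37), Zbtb17 (-0.26), Ncor1 (-0.18) and Bcor (-0.35) also passed, so that 7 genes were lower, as did Cdkn1a (0.52, higher). In the exact permutation test with the mouse as a replicate block, Bach1 passed at p = 0.0200.

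Genes called higher and lower numbered 3389 and 3897 against no change, 2512 and 1877 in mouse 1 alone and 408 (lower) in mouse 2 alone. Leaving out 1 line each, they ranged from 807 to 1353 and from 802 to 1434, with 1353 and 1434 without EV line 2C, against 901 and 976. Against no change 22.5% of all tested genes were higher and 25.9% lower. By that test the lists gave 3 higher and 18 lower (BTB family), 2 and 3 (PRC1.1), 4 and 3 (NuRD, SIN3 and CtBP) and 4 and 2 (BCL6-repressed), and 1 (BACH-repressed), 2 (plasma cell) and 1 (regulators) lower. With the mouse as a replicate block 1 small MAF gene and 1 BACH-repressed gene were higher, and without EV line 2C, an alternative chosen after seeing the data, 2 genes of the BTB family were lower.

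Stat5a changed sign with a CPM filter (-0.0052), in mouse 2 alone (-0.10) and among fits without 1 line (from -0.022 to 0.081). The difference between the mice ranged from -0.46 to 0.22 for Bcl6 and from -0.27 to 0.12 for Zbtb7a when lines were left out, and without EV line 2C it passed for Bach1 (-0.26), Bach2 (-0.99), Bcor (0.72) and Prdm1 (-2.03). Nqo1, Txnrd1 and Zbtb46 were not called by DESeq2 (adjusted p = 0.342, 0.111 and 0.0662), and Mta3 and Socs1 not with line pairs as a block (0.0856 and 0.0615). Nqo1 was also lost with line pairs as a block (0.121), without a gene filter and with lines of mouse 1 alone, and Zbtb46, Hdac5, Ccnd2, Nqo1, Txnrd1, Ciita, Jchain, Xbp1, Socs1 and Pkm with lines of mouse 2 alone. The calls lost without 1 line were those of Nqo1 (EV 1B, 1C, 2A, 2B and 2C, BCR-ABL1 1B, 2A, 2B and 2C), Txnrd1 (EV 1A, 1C, 2A and 2B, BCR-ABL1 1A, 1B and 1C) and Socs1 (EV 1A, 1B, 1C and 2A, BCR-ABL1 1A, 1B and 1C). The causes were not tested. Depth limits Nqo1, Fkbp11, Cdkn2b, Zbtb46 and Hmox1, which rest on at most 61 counts per line.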

Other observations

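Bach2it1, a transcript annotated on the same strand in an intron of Bach2, held between 303 and 1435 counts per line and ran from 6.73 to 28.5 CPM in EV lines and from 5.84 to 11.3 CPM in BCR-ABL1 lines. The groups overlapped, and the log2 fold change was -1.03 ± 0.33 SE (FDR = 0.133 against 1.5-fold and 0.0106 against no change).

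In the BTB zinc finger family, 2 genes chosen after their values were seen came near the 1.5-fold threshold. Zbtb8a lay between 0.119 and 1.35 CPM in EV lines and between 1.22 and 3.11 CPM in BCR-ABL1 lines (log2 fold change 1.72 ± 0.50 SE, FDR = 0.0654). Zbtb20, a repressor known from B cells and plasma cells, lay between 30.7 and 73.6 CPM in EV lines and between 20.6 and 30.1 CPM in BCR-ABL1 lines (log2 fold change -0.91 ± 0.21 SE, FDR = 0.114), and these groups did not overlap.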
